A study of Mus musculus with 6 samples.

Results

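A set of 10 genes that regulate transcription in spermatids, or that belong to the family of the TATA-binding protein (TBP), were followed in the testis of mice that had received fecal microbiota. The 10 genes, chosen by their symbols, were Crem, Fhl5, Rfx2, Sox30, Tbp, Tbpl1, Taf7l, Taf3, Gtf2a1l and Brdt, out of 54532 genes in the table. All 10 passed the minimum mean of 1 FPKM (a fragment count scaled to gene length and library depth) and were among the 15206 genes tested. Testis RNA from C57BL/6 mice was sequenced in 6 libraries, of which replicates 16, 19 and 21 were control-FMT and replicates 18, 24 and 31 alcohol-FMT. In the study's methods the males arrived at 3 weeks of age and were fed together for 2 weeks. Recipients, described as normal mice and kept in groups of 5, were given 200 µl of fecal supernatant by gavage 3 times a week for 10 weeks. The supernatant came from 5 donors per group: the donors of the alcohol-FMT group had drunk 10% ethanol for 10 weeks by the methods (8 weeks by the series design), and those of the control-FMT group distilled water. By the study's account no antibiotics were given before the transfer. How far the recipients' own gut bacteria persisted, and which donor's stool each recipient received, is not given there. The comparison asked whether the RNA of these regulators differed between recipients of the 2 kinds of microbiota.

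RNA polymerase II starts at most promoters with the help of TFIID, a complex of TBP and its associated factors (TAFs), and of TFIIA, which stabilizes TBP on DNA. Male germ cells add relatives of these proteins: TBPL1 is a TBP-like factor needed for spermiogenesis in mice, TAF7L is a germ cell paralog of TAF7, and GTF2A1L is a germ cell paralog of the large TFIIA subunit. CREM is the cAMP-responsive regulator of many haploid genes, and in the mouse testis it works with the LIM protein FHL5 (also called ACT). RFX2 and SOX30 are DNA-binding factors that mouse round spermatids need, and BRDT is a bromodomain protein of spermatocytes and spermatids that reads acetylated histones.

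The libraries held between 16504096 and 18633124 fragments in genes, and every FPKM value read back to whole fragments within a tolerance of 0.01. Between 28444 and 29480 genes had a value above 0. Spermatocyte markers summed to 394 to 496 FPKM per library, round spermatid markers to 691 to 800.0 FPKM and elongating spermatid markers to 18245 to 26313 FPKM, so the germ cells that use these regulators were present in every library. Epididymis markers summed to 5.65 FPKM in alcohol-FMT replicate 31 and to 0.961 to 1.94 FPKM in the other 5 libraries. Most of the 5.65 FPKM was Cuzd1, at 4.44 FPKM, which had 0.738 to 1.91 FPKM in the other 5 libraries. Adam7, Lcn9 and Rnase9 were at 0.440, 0.454 and 0.320 FPKM in replicate 31. Lcn5, Lcn8 and Gpx5 were at 0 in alcohol-FMT replicate 31. That library is also one on which the unadjusted call of Taf3 rests, and the part of epididymis RNA in it was not tested. In whole testis, fewer cells of a type and less RNA per cell cannot be told apart. The study's supplement lists the same numbers as single mice, so each replicate is 1 animal.

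Promoters from RefSeq (GRCm38.p6) were found for 9 of the 10 genes, as windows from 250 bases before to 50 bases after the start. The promoters of Taf3 and Fhl5 are shown because these were the genes whose groups did not overlap. Those of Tbp and Tbpl1 are shown because their RNA profiles over the 6 libraries were the most alike, and that of Rfx2 because it carries the motif of its own family. Each is printed 5′ to 3′ on the strand of the gene, and capitals mark 3 motifs on either strand. These were TATAAA, the core of the box that TBP binds, then TGACG, the core of the cAMP response element, and GTTNCC, the motif of the RFX family.
Taf3, chr2:10048560-10048859, minus strand: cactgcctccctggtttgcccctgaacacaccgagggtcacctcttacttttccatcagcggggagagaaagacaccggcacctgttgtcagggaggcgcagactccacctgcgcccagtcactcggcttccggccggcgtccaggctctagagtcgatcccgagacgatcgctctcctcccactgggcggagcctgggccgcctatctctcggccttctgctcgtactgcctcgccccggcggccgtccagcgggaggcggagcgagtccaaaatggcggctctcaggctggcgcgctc
Fhl5, chr4:25242803-25243102, minus strand: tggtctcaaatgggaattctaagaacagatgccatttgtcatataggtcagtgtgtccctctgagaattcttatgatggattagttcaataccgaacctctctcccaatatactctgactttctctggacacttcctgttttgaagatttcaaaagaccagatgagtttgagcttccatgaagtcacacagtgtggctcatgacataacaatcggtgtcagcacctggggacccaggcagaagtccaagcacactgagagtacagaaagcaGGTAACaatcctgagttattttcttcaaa
Tbp, chr17:15499638-15499937, plus strand: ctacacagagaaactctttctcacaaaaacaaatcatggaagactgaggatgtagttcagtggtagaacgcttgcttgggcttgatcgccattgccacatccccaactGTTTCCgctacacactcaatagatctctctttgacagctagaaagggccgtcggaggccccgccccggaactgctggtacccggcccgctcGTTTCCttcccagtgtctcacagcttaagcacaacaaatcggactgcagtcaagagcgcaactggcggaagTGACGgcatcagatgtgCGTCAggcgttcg
Tbpl1, chr10:22731398-22731697, minus strand: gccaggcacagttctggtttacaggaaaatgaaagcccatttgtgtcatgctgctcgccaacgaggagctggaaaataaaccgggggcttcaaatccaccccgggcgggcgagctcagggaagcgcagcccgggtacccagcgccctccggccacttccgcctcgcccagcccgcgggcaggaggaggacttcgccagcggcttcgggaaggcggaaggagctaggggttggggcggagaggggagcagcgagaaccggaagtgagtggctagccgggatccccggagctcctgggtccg
Rfx2, chr17:56830959-56831258, minus strand: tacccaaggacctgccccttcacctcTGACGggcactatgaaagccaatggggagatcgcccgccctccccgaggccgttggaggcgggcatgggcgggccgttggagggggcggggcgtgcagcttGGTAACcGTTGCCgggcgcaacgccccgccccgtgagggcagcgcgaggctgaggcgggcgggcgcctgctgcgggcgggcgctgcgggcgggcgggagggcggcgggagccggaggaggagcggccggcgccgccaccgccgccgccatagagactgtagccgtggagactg

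None of these letters occurred in the Taf3 and Tbpl1 windows, whose GC contents were 66.7% and 66.0% against a median of 52.7% over all promoters. The Tbp window held GTTNCC at 142 and 51 bases before the start and TGACG on each strand just after it. The Rfx2 window was the richest in GC (75.7%) and held GTTNCC on opposite strands at 123 and 116 bases before the start, separated by a single base. GTTNCC occurred in 7 of the 10 windows of these genes (Fhl5 has a second window) and in 45.3% of all 32851 promoters. TATAAA occurred in 1, that of Taf7l, against 13.6% of all promoters. TGACG occurred in 2, those of Tbp and Rfx2, against 20.8%, and the full element TGACGTCA, which contains TGACG, in none, against 1.79%. These matches describe the letters of the windows.

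Compared per length as FPKM, the regulators covered a wide range of levels. Gtf2a1l (chromosome 17, 88668660 to 88715152) had 179.9 to 198.3 FPKM and Fhl5 (chromosome 4, 25199908 to 25242876) 172.0 to 211.6 FPKM, ranks 259 and 263 among all genes of the table. Their ranges overlapped, so the order of these leading genes was not resolved. Sox30 (chromosome 11, 45980310 to 46017994) followed at 83.4 to 99.2 FPKM and Tbpl1 (chromosome 10, 22703879 to 22731938) at 77.9 to 95.2 FPKM, again overlapping. Rfx2 (chromosome 17, 56775897 to 56831013) had 67.4 to 77.2 FPKM, just under the lowest Tbpl1 value, and overlapped Brdt (chromosome 5, 107331159 to 107387058) at 54.8 to 69.1 FPKM. By these gene lengths, no range met the next from Crem downwards. Crem (chromosome 18, 3266048 to 3337748) had 31.4 to 39.2 FPKM, Taf7l (chromosome X, 134460118 to 134476490) 13.8 to 17.3 FPKM, Tbp (chromosome 17, 15499888 to 15528379) 8.89 to 10.8 FPKM and Taf3 (chromosome 2, 9914552 to 10048596) 4.40 to 6.61 FPKM. The order between genes depends on the length used. If all fragments came from the shortest principal transcript, Tbpl1 would have the highest mean of the 10 genes, 245.2 FPKM. Fhl5 would be at 197.2 FPKM, Gtf2a1l would stay at 190.0 FPKM, Rfx2 would be at 159.8 FPKM and Sox30 would stay at 91.0 FPKM. Crem would then be at 83.5 FPKM, Tbp at 73.1 FPKM, Brdt at 66.5 FPKM, Taf7l at 17.8 FPKM and Taf3 at 7.17 FPKM. The coefficient of variation within a group lay between 2.33% and 13.5%, and the counting error of a single library was at most 4.40%, for Taf3 with 517 to 756 fragments.

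**Figure D1:**
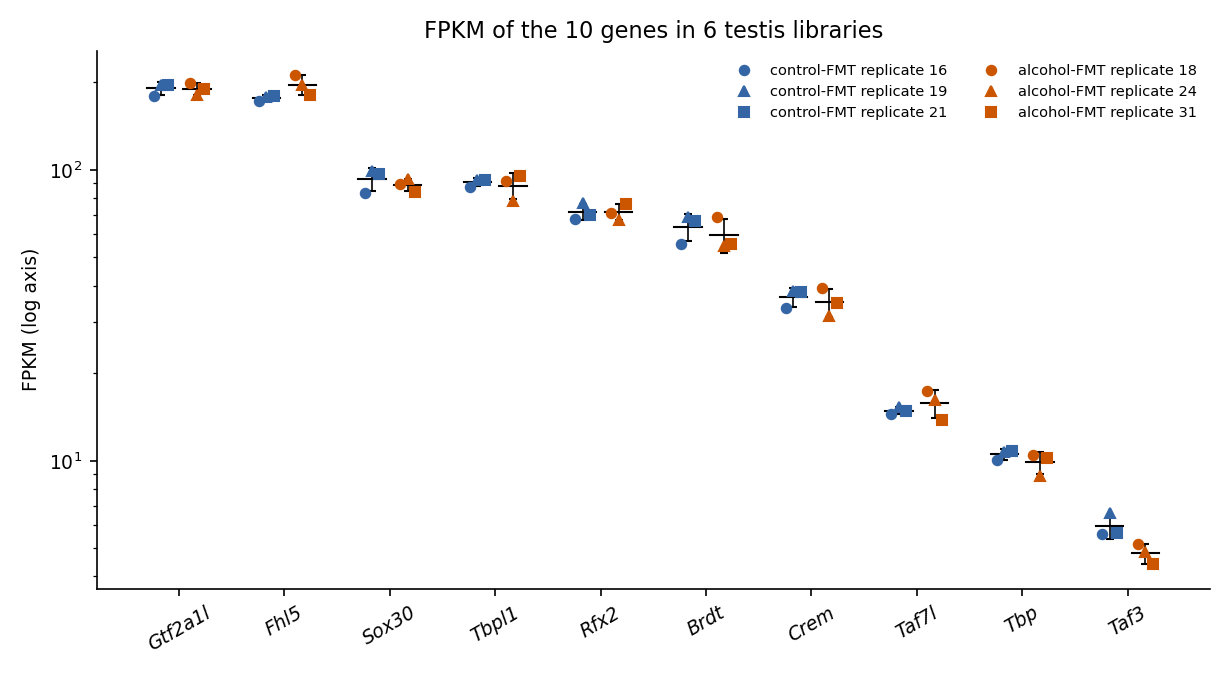
FPKM of the 10 genes (log axis) in the 3 control-FMT libraries (blue) and the 3 alcohol-FMT libraries (orange), with the mean and SD of each group as black bars. The groups overlap for 8 genes, while the alcohol-FMT libraries of Fhl5 lie above and those of Taf3 below all control-FMT libraries.

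In the comparison of the groups none of the 10 genes differed at an adjusted p of 0.05 (limma on log2(FPKM + 1), Benjamini-Hochberg over 15206 genes, 0% of which were called). The adjusted p-values of the 10 genes ran from 0.672 to 0.997. At an unadjusted p of 0.05 no gene of the 10 was higher in the alcohol-FMT group, against 4.93% of all genes tested, and 1, Taf3, was lower, against 2.34%. With limma-voom on fragments the counts were the same, 0 higher and 1 lower. Groups that did not overlap were seen for Fhl5 (higher) and Taf3 (lower), against 7.76% and 5.33% of all genes tested in these directions. The log2 fold change was above 0 for 2 genes and below 0 for 8, with a median of −0.05 over the 10 genes and 0.01 over all genes tested. The spread between libraries within a group, as the residual SD, was below the median of all genes tested (0.122) for 8 of the 10 genes, the exceptions being Brdt (0.172) and Crem (0.133).

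**Figure D2:**
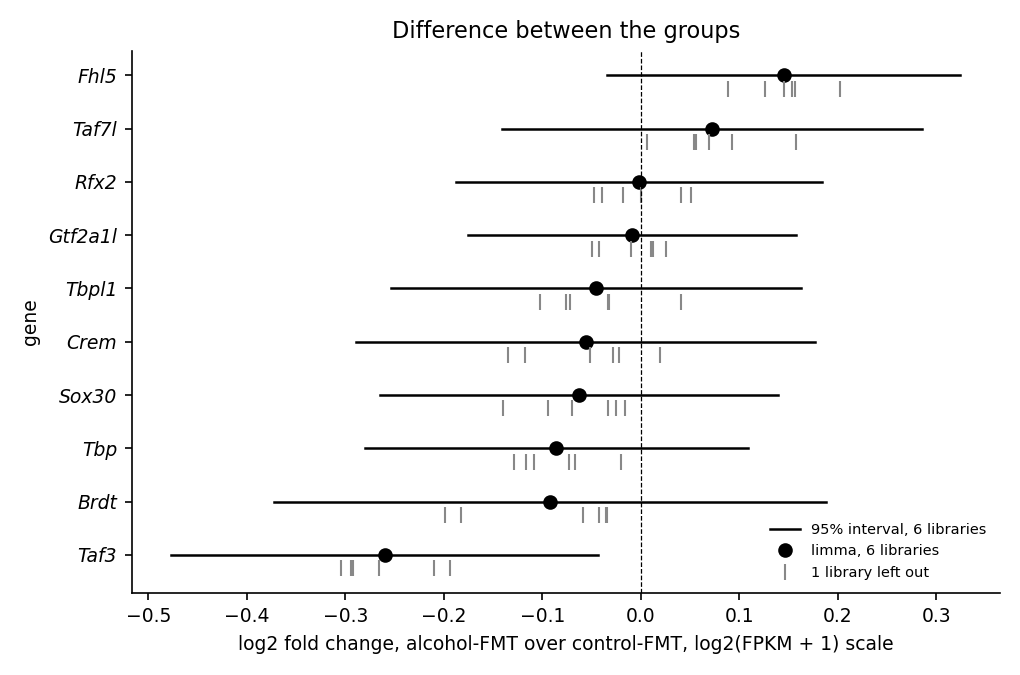
Log2 fold change of the alcohol-FMT over the control-FMT group on the log2(FPKM + 1) scale for the 10 genes, with the limma estimate (point), its 95% interval (line) and the 6 estimates with 1 library left out (grey ticks). The interval of Taf3, from −0.48 to −0.04, is the one that does not include 0.

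Taf3 encodes the TFIID subunit whose PHD finger binds trimethylated lysine 4 of histone H3. Its FPKM was 5.62, 6.61 and 5.63 in control-FMT replicates 16, 19 and 21 and 5.16, 4.84 and 4.40 in alcohol-FMT replicates 18, 24 and 31. Every alcohol-FMT library lay below every control-FMT library, by 0.457 FPKM at the narrowest. The means were 5.95 ± 0.565 FPKM for the control-FMT and 4.80 ± 0.380 FPKM for the alcohol-FMT libraries (mean ± SD, n = 3 each), a difference of −19.3%. The log2 fold change was −0.26 (standard error 0.092), with an unadjusted p of 0.025 and an adjusted p of 0.672 in limma. On the log2(FPKM + 1) scale the difference of so low a gene is understated, and a pseudocount of 0.1 gave −0.30. Scaling to library totals gave −0.28. Limma-voom on fragments, which also scales to library totals, gave −0.34 with an unadjusted p of 0.006. The unadjusted p missed 0.05 without alcohol-FMT replicate 24 (0.053), without alcohol-FMT replicate 31 (0.078) and without control-FMT replicate 19 (0.092). Longer genes had lower fold changes throughout the table, with a median of 0.07 below 1000 bases and −0.05 from 8000 bases upwards. For the class of 4000 to 8000 bases, which holds Taf3 (6389 bases), the median was −0.01, and with the length trend removed Taf3 stood at −0.24 with an unadjusted p of 0.022. This alternative was added after the data were seen.

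Fhl5, the LIM-only coactivator that binds CREM in spermatids, was the member with the largest positive difference, which did not pass the test. Its FPKM was 172.0, 178.8 and 179.4 in the control-FMT replicates 16, 19 and 21 and 211.6, 195.4 and 180.6 in the alcohol-FMT replicates 18, 24 and 31. The groups did not overlap, but alcohol-FMT replicate 31 exceeded control-FMT replicate 21 by 1.26 FPKM only. The means were 176.7 ± 4.12 FPKM for the control-FMT and 195.9 ± 15.5 FPKM for the alcohol-FMT libraries (mean ± SD, n = 3 each), a difference of 10.9%. The log2 fold change was 0.15 (standard error 0.076, 95% interval −0.03 to 0.32), with an adjusted p of 0.728 in limma. With the length trend removed it was 0.08, since Fhl5 (1171 bases) lies in the class of 1000 to 2000 bases, whose median was 0.05. Crem itself had 33.4, 38.2 and 37.9 FPKM in the control-FMT libraries and 39.2, 31.4 and 34.8 FPKM in the alcohol-FMT libraries. The highest and the lowest value of Crem both came from the alcohol-FMT group, and the log2 fold change was −0.06 (95% interval −0.29 to 0.18). Crem has 39 annotated transcripts in GENCODE M21, and a value per gene does not separate its activator from its repressor forms. Among the 48 bZIP genes of the table Crem lay below Creb3l4 (185 FPKM), a haploid germ cell member of the family. Its order against Atf1 (31.7 to 38.1 FPKM) was not resolved.

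Among the relatives of the basal machinery, Tbpl1, Taf7l and Gtf2a1l each had a higher FPKM than Tbp, Taf7 and Gtf2a1 respectively, and none of Tbp, Tbpl1, Taf7l and Gtf2a1l differed between the groups beyond the spread between libraries. Gtf2a1l had 179.9, 195.5 and 196.3 FPKM in the control-FMT libraries and 198.3, 180.4 and 189.4 FPKM in the alcohol-FMT libraries, with a log2 fold change of −0.01 (95% interval −0.18 to 0.16). Tbpl1 had 87.5, 92.5 and 92.6 FPKM and 91.7, 77.9 and 95.2 FPKM, and its log2 fold change was −0.05 (95% interval −0.25 to 0.16). The alcohol-FMT group held both the lowest and the highest Tbpl1 value. Tbp had 10.0, 10.7 and 10.8 FPKM and 10.5, 8.89 and 10.2 FPKM, with a log2 fold change of −0.09 (95% interval −0.28 to 0.11). Its unadjusted p was 0.333 in limma, whereas the study, which used DESeq2, reports Tbp as significantly decreased in the alcohol-FMT group. The lowest Tbp value, like the lowest Tbpl1 value, was that of alcohol-FMT replicate 24. Taf7l had 14.5, 15.3 and 14.8 FPKM in the control-FMT libraries and 17.3, 16.1 and 13.8 FPKM in the alcohol-FMT libraries, and its log2 fold change was 0.07 (95% interval −0.14 to 0.29). The control-FMT values of Taf7l were close together (SD 0.407) and lay within the span of the alcohol-FMT values (SD 1.76).

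The annotation bears on the level of Tbp. The table divides its fragments by 13576 bases, the length of all its exons together, which is set by a long transcript (Tbp-211, 12794 bases), whereas Tbp-201 has 1891 bases. If all fragments came from Tbp-201 the mean of 10.2 FPKM would be 73.1 FPKM. The mean ratio of Tbpl1 to Tbp, 8.79 by the lengths of the table, was 3.35 by the shortest principal transcript of each gene. It was 1.39 with the longest principal transcript of Tbpl1 and the shortest of Tbp, so Tbpl1 remained above Tbp in each of these choices while its excess did not have a fixed size. Pdcd2, on the opposite strand, lies with all its 2582 annotated exon bases inside exons of Tbp (19.0% of Tbp's bases) and is listed at 0 in all 6 libraries. Reads from that stretch cannot be assigned here, and their part in the level of Tbp was not tested. The comparison between the groups uses the same length in every library. For Taf3 the overlapping exons of other genes covered 362 and 127 bases, for Tbpl1 407 and for Crem 472.

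**Figure D3:**
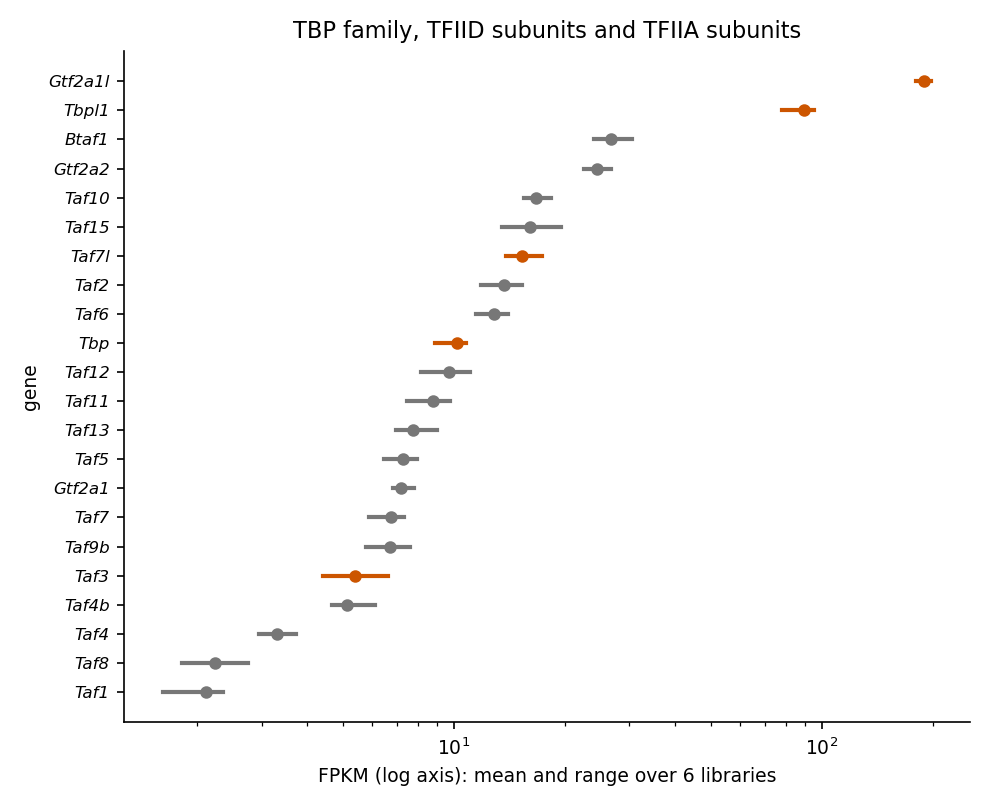
Mean FPKM (points) and range over the 6 libraries (lines) on a log axis for the genes of the TBP family, TFIID and TFIIA with a mean of at least 1 FPKM, with the genes of this report in orange. Gtf2a1l (190 FPKM) and Tbpl1 (89.6 FPKM) stand above the other genes drawn, and Taf3 (5.38 FPKM) is near the lower end.

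By the lengths of the table, which leave the place of Tbp unsettled, Gtf2a1l and Tbpl1 were followed by Btaf1 (26.8 FPKM), which removes TBP from DNA, and Gtf2a2 (24.4 FPKM), the small TFIIA subunit. Taf7l (15.3 FPKM) lay above Taf7 (6.73 FPKM). Tbpl2, the oocyte member of the TBP family, was at 0.0135 FPKM on average and at 0 in 5 of the 6 libraries.

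The DNA-binding factors and BRDT gave no difference beyond the spread between libraries. Rfx2 had 68.1, 77.2 and 70.1 FPKM in the control-FMT libraries and 71.3, 67.4 and 76.3 FPKM in the alcohol-FMT libraries. Its means, 71.8 and 71.7 FPKM, were the closest of the 10 genes, and the 95% interval of its log2 fold change, −0.19 to 0.18, bounds a difference of either sign. Rfx2 held 42.4% of the summed mean FPKM of the 8 RFX genes and was 1.70 to 2.17 times as high as Rfx8, the next of them, in each library. Sox30 had 83.4, 99.2 and 96.7 FPKM and 89.7, 92.8 and 84.2 FPKM, with a log2 fold change of −0.06 (95% interval −0.27 to 0.14). Among the 50 HMG-box genes of the table it was second to Hmgb4 (439 FPKM), which is expressed in male germ cells, and above Tfam (32.5 FPKM). Brdt had 55.8, 68.7 and 66.5 FPKM in the control-FMT libraries and 69.1, 54.8 and 55.4 FPKM in the alcohol-FMT libraries, the largest spread within groups among the 10 genes (residual SD 0.172). The values of Brdt fell into a low and a high set that each held libraries of both groups, and the log2 fold change was −0.09 (95% interval −0.37 to 0.19).

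Single libraries stood high or low for many of the 10 genes at once. Alcohol-FMT replicate 18 was the highest library for 5 of the 10 genes, and alcohol-FMT replicate 24 the lowest for 5. Control-FMT replicate 19 lay above the gene's own mean for 9 genes and control-FMT replicate 16 below it for 9. The libraries with low Brdt (control-FMT 16, alcohol-FMT 24 and 31) were also those with the lowest summed spermatocyte markers, at 419, 423 and 394 FPKM, against 435, 460.4 and 496 FPKM in the other libraries. This was seen in the data, and the part of spermatocyte RNA in the level of Brdt was not tested. Over the 6 libraries the most alike profiles were those of Tbp and Tbpl1, with a root mean square difference of 0.040 on the log2 scale. Taf7l was the gene nearest to Fhl5 (0.049), Tbp the nearest to Crem (0.051) and to Gtf2a1l (0.051), and Crem the nearest to Brdt (0.058). Gtf2a1l was nearest to Rfx2 (0.063) and to Sox30 (0.081). The profile of Taf3 was the farthest from any other, with Sox30 as its nearest at 0.123. Taf3 also had the widest range over the libraries (0.49, with Brdt next at 0.33), and this measure does not scale for range.

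**Figure D4:**
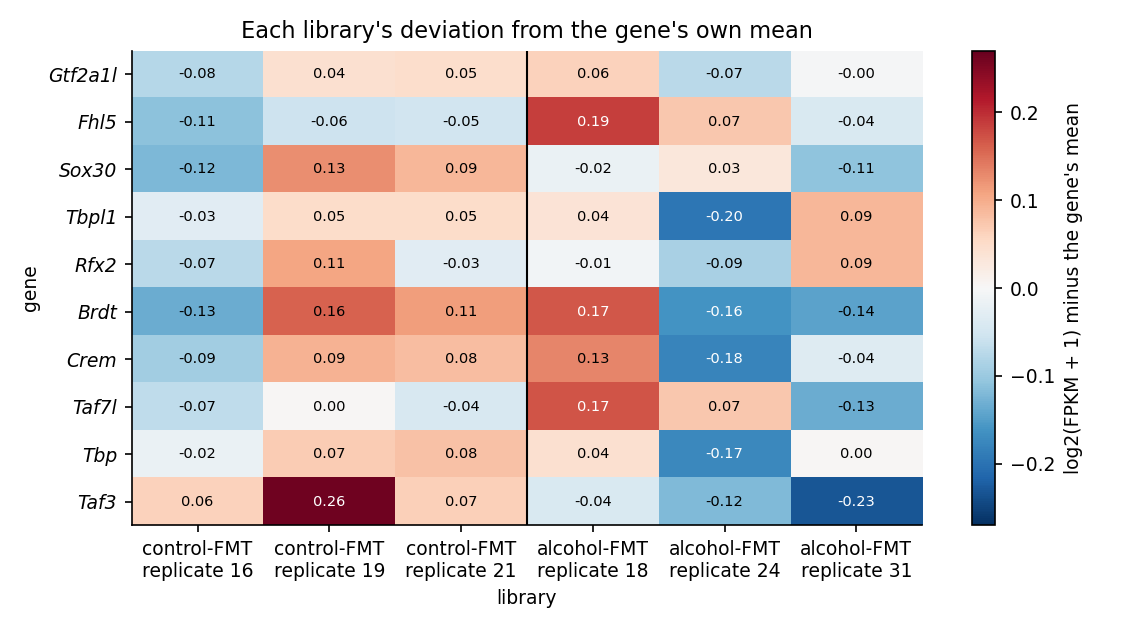
Deviation of each library from the gene's own mean of log2(FPKM + 1) for the 10 genes (rows) in the control-FMT libraries (left of the line) and the alcohol-FMT libraries (right), with the values printed in the cells. Alcohol-FMT replicates 18 and 24 lie on opposite sides of the mean for Crem (0.13 and −0.18) and Brdt (0.17 and −0.16), and Taf3 alone is positive in the control-FMT and negative in the alcohol-FMT libraries throughout.

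Ratios of FPKM within a library, which do not depend on the scaling of the library, were compared for 8 pairs of a gene and a partner. With 3 libraries against 3 the exact permutation test cannot give a two-sided p below 0.1, and after adjustment over the 8 pairs every p was 0.40 or higher. The ratio of Tbpl1 to Tbp was 8.73, 8.64 and 8.57 in the control-FMT libraries and 8.73, 8.76 and 9.34 in the alcohol-FMT libraries. The groups of this ratio did not overlap, yet control-FMT replicate 16 and alcohol-FMT replicate 18 differed by 0.0019 only (difference of log2 ratios 0.05, exact permutation p = 0.1, adjusted 0.40). The ratio of Fhl5 to Crem was 5.15, 4.68 and 4.73 in the control-FMT libraries and 5.39, 6.21 and 5.18 in the alcohol-FMT libraries, without overlap (difference 0.20, exact permutation p = 0.1, adjusted 0.40). The ratio of Taf3 to Tbp was 0.561, 0.617 and 0.522 against 0.491, 0.544 and 0.432, with overlapping groups (difference −0.21, exact permutation p = 0.2). For the paralogs, Gtf2a1l exceeded Gtf2a1 24.97-fold to 27.7-fold and Taf7l exceeded Taf7 1.99-fold to 2.42-fold over the 6 libraries. Crem exceeded Creb1 26.3-fold to 31.9-fold and Rfx2 exceeded Rfx3 12.98-fold to 16.9-fold, while Fhl5 was at 0.22 to 0.30 of Fhl4, another testis LIM-only gene. The long exon lengths of Creb1 (13742 bases) and Rfx3 (11034 bases) lower their FPKM as for Tbp. By the shortest principal transcript of each gene the means were 83.5 FPKM for Crem and 13.1 FPKM for Creb1. They were 159.8 FPKM for Rfx2 and 20.5 FPKM for Rfx3, so the size of these excesses depends on the length used.

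**Figure D5:**
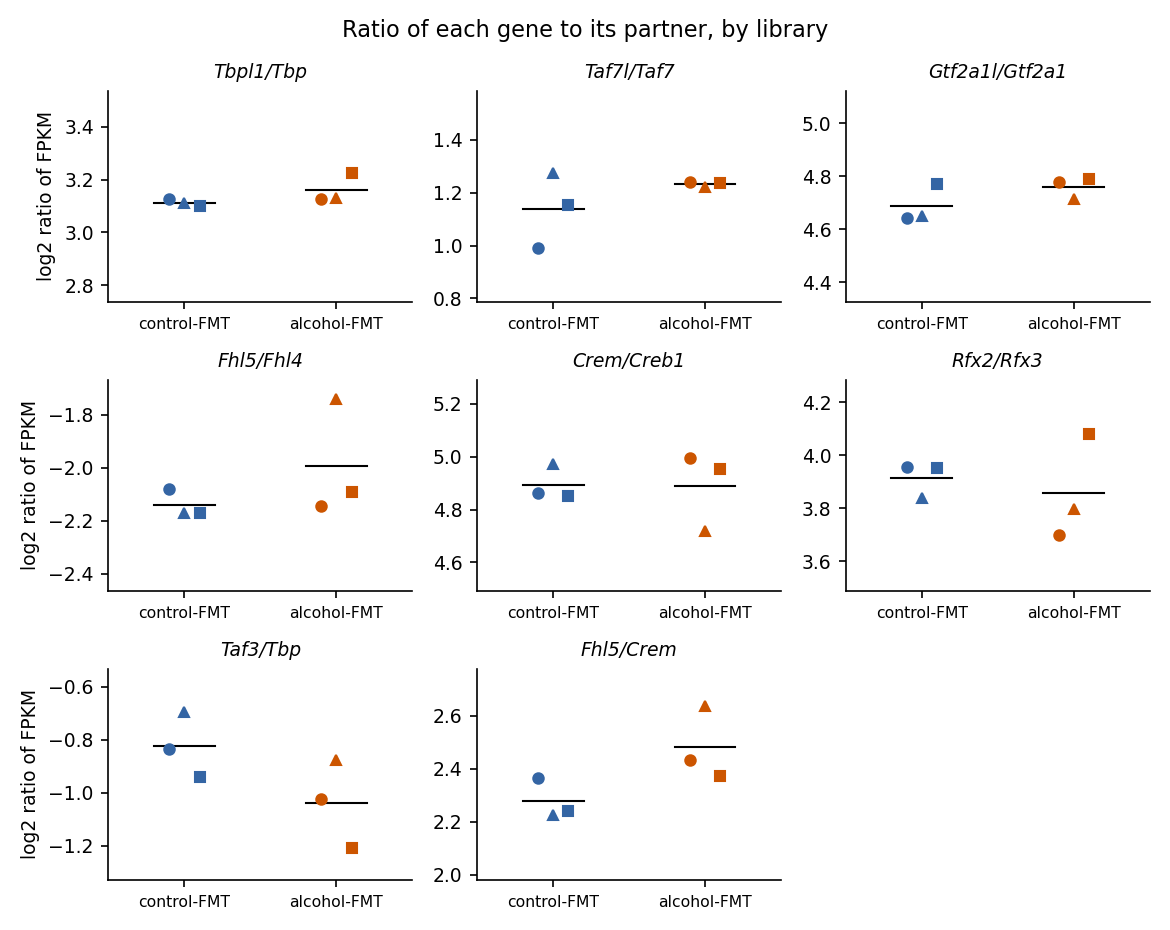
Log2 ratio of the FPKM of a gene to that of its partner in each control-FMT library (blue, replicates 16, 19 and 21 from left to right) and each alcohol-FMT library (orange, replicates 18, 24 and 31), with the group mean as a line and axes of equal span. The groups do not overlap for Tbpl1 over Tbp and for Fhl5 over Crem, and overlap for the other 6 pairs.

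The partners and pathway genes around these regulators gave few values past an unadjusted p of 0.05, and none past an adjusted p of 0.05 (limma). Over all 15206 genes 1106 passed the unadjusted threshold, with 2697 without alcohol-FMT replicate 18, 664 without control-FMT replicate 19 and 678 without control-FMT replicate 21. Of 15 genes of the CREB family and FHL partners 14 were tested, 0 were higher and 1 was lower, with a median log2 fold change of −0.04. That gene was Crebbp, the histone acetyltransferase CBP that CREB recruits, at 4.10, 4.62 and 4.03 FPKM in the control-FMT libraries and 3.17, 3.38 and 3.35 FPKM in the alcohol-FMT libraries. Its log2 fold change was −0.29 (standard error 0.080, unadjusted p = 0.009, adjusted p = 0.595 in limma). Its relative Ep300 had −0.19 (unadjusted p = 0.060 in limma, with no overlap of the groups) and Fhl2 −0.31 (unadjusted p = 0.077). The level of Fhl2 was low, at 1.92 to 3.46 FPKM with 67 to 119 fragments, and its groups overlapped. With a library left out Fhl2 ranged from −0.48 to −0.21. Crebbp (13540 bases) and Ep300 (14273 bases) belong to the length class of 8000 bases and more, whose median was −0.05, and with the length trend removed they stood at −0.23 (unadjusted p = 0.032) and −0.13 (unadjusted p = 0.150). The number of lower genes in this list was 2 with the length trend removed, with library totals and with limma-voom. It was also 2 among protein-coding genes only and without control-FMT replicate 16 or 19. At a mean of at least 5 FPKM it was 0, but that filter removed Crebbp, Ep300 and Fhl2. Their means were 3.78, 4.66 and 2.53 FPKM, so this setting cannot decide on them.

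Of the 9 CREM-dependent haploid genes none passed the unadjusted threshold, and the median was 0.09. The number higher was 1 without alcohol-FMT replicate 18 and 2 without alcohol-FMT replicate 24. In these settings 2697 and 788 of all 15206 genes passed in either direction. Ace, whose germ cell form is read from a CREM-responsive promoter, had 121.7, 124.7 and 118.2 FPKM in the control-FMT libraries and 132.9, 132.7 and 131.3 FPKM in the alcohol-FMT libraries. These groups did not overlap, and the log2 fold change was 0.12 (unadjusted p = 0.074 in limma). The protamine gene Prm2 stood at 0.21 (unadjusted p = 0.119) and Smcp, of the sperm mitochondrial capsule, at −0.17 (unadjusted p = 0.256). Prm2 (894 bases) and Smcp (913 bases) belong to the length class below 1000 bases, whose median was 0.07.

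Of 12 genes of the RFX family and SOX relatives none passed, with a median of −0.04. Sox9, the Sertoli cell factor, had the smallest p (log2 fold change −0.15, unadjusted p = 0.099 in limma), followed by Sox5 (−0.13) and Rfx7 (−0.13). Of 14 intraflagellar transport genes, which include targets of RFX factors in mouse spermatids, 1 was higher and none lower. Of all genes tested 4.93% were higher and 2.34% lower at this threshold. The median of the 14 genes was 0.04. Ift22 had 28.1, 27.8 and 29.1 FPKM and 32.3, 30.9 and 32.1 FPKM, with a log2 fold change of 0.16 (unadjusted p = 0.030, adjusted p = 0.674 in limma). Ift172 had 0.14 (unadjusted p = 0.066) and Ift27 0.19 (unadjusted p = 0.171). The number of higher genes was 0 with library totals, with limma-voom and without control-FMT replicate 16, 19 or 21 or alcohol-FMT replicate 31. It was 2 with the length trend removed, and 2 higher with 1 lower without alcohol-FMT replicate 18. In these settings 1033 and 2697 of all 15206 genes passed in either direction.

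Of 19 other TFIID and TBP partners 17 were tested and none passed, with a median of −0.02. The smallest p-values were those of the subunits Taf6 (log2 fold change 0.13, unadjusted p = 0.117 in limma), Taf13 (0.14) and Taf1 (−0.16), none of which passed the unadjusted threshold that Taf3 passed. None of 15 general RNA polymerase II factors passed (median 0.02). Ercc2 and Gtf2h2, of TFIIH, had 0.13 and 0.12, and Gtf2f1, of TFIIF, had 0.18. None of 5 genes of the BET family and P-TEFb passed (median −0.11). Ccnt1 and Ccnt2, the cyclins of the elongation kinase P-TEFb, had −0.15 and −0.12, and the BET gene Brd2 −0.11 (unadjusted p = 0.179 in limma).

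Round spermatid markers summed to 691 to 707 FPKM in the control-FMT libraries and 751 to 800.0 FPKM in the alcohol-FMT libraries, without overlap. Of these 6 genes 1, Tssk2, was higher at the unadjusted threshold, against 4.93% of all genes tested. Without Tssk2 the sums were 372, 377 and 387 FPKM against 368, 423 and 391 FPKM and overlapped. Tssk2 had a log2 fold change of 0.22 (unadjusted p = 0.010, adjusted p = 0.595 in limma), without overlap of its groups. Its unadjusted call held with any 1 library left out (p up to 0.049 in limma). The call of Tssk2 was lost with the length trend removed (unadjusted p = 0.060). Without alcohol-FMT replicate 18 there were 3 higher genes in this list. None of the 7 spermatocyte, 8 elongating spermatid, 7 Sertoli cell and 6 Leydig cell markers tested passed that threshold, nor any of the 5 spermatogonia, 5 macrophage, 3 myoid and endothelial markers and 1 epididymis marker tested. Without alcohol-FMT replicate 18, which had the highest spermatocyte sum, 3 of the 7 spermatocyte markers were lower at that threshold (Sycp1, Sycp2 and Hormad1, with log2 fold changes of −0.34, −0.26 and −0.23). Sycp3 (−0.10), Spo11 (−0.05), Piwil1 (−0.01) and Tex101 (0.06) did not pass, and 2697 of all 15206 genes passed in that setting. Leaving out the library with the highest values of these 3 markers lowers the alcohol-FMT mean, so this count cannot decide on a difference. Sertoli cell sums were 101 to 120 FPKM against 104 to 116 FPKM and Leydig cell sums 358 to 466 FPKM against 290 to 406 FPKM. Taf3 and Fhl5 stand beside these values, and the part of cell composition in them was not tested.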

How the data were processed

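Total RNA of testis was made into TruSeq libraries by the authors, 3 per group. The authors deposited 1 table of FPKM values (fragments scaled to exon length and library depth) with the gene length in bases. TopHat2 is the aligner in the study's methods. HISAT2 2.0.5, with mm10 and mm8 as builds, stands in the submitters' notes. The coordinates of the table are those of GRCm38 (mm10). The counter, the handling of shared reads and the use of strand are not given in the sources used here.

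Fragments were read back from FPKM and gene length. Groups were taken from the sample labels. The main test was limma 3.58.1 (R 4.3.3) with a trended variance on log2(FPKM + 1), over genes averaging at least 1 FPKM, with Benjamini-Hochberg adjustment over all of them. Ratios were compared with a two-sided exact permutation test. Limma was checked on simulated data with independent noise for each gene and library. That check does not cover shifts shared by many genes of a library. Alternatives were no filter, a mean of at least 5 FPKM, a pseudocount of 0.1, scaling to library totals, limma-voom on fragments, protein-coding genes only, removal of the length trend (added later) and each library left out. Exons came from GENCODE M21 and promoters from RefSeq. Tables and plots were made with Python 3.11.15.

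The members, lists and pairs were chosen with earlier results of these data known, and 1 gene of a list, with its pair, is not reported here. Named were all members and partners, the 3 smallest p-values in each list that holds no markers, and for each member the member with the nearest profile. Genes outside this rule, named for a level, an overlapping exon or as the marker that passed, were picked with their values in view.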

Additional observations from a re-analysis of the deposited data

How the results depend on the processing

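No member was called at an adjusted p of 0.05 under any alternative run. The number of members lower at an unadjusted p of 0.05 was 1 under every filter, pseudocount, scaling and tool and 0 to 1 with a library left out; the number higher was 0 with all libraries and 0 to 1 with a library left out, the 1 being Fhl5 without alcohol-FMT replicate 31 (unadjusted p = 0.033 in limma). The median log2 fold change of the members ran from −0.08 to −0.05 over the settings with all libraries and from −0.09 to 0.02 with a library left out, being above 0 without alcohol-FMT replicate 24. Signs turned for these small differences. With a library left out Crem ranged from −0.14 to 0.020, Rfx2 from −0.048 to 0.051, Tbpl1 from −0.10 to 0.041 and Gtf2a1l from −0.050 to 0.025, and Rfx2 was at 0.022 with the length trend removed. The difference of the log2 ratio of Crem to Creb1 ranged from −0.059 to 0.080 and that of Rfx2 to Rfx3 from −0.17 to 0.022 with a library left out. Over all genes 2 were called without alcohol-FMT replicate 31 and 0 with the 6 libraries. No paired analysis was possible because the groups share no replicate numbers.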
